A study of Homo sapiens with 6 samples.

Results

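The genes described here encode the NF-kB transcription factor subunits and the proteins that hold them inactive or release them. They comprise the 5 subunit genes NFKB1, NFKB2, REL, RELA and RELB, the inhibitors NFKBIA, NFKBIB and NFKBIE, the feedback enzyme TNFAIP3 and the kinase gene IKBKB. They were chosen by name, and every probe set that the platform annotation gives to them was taken, which yielded 18 of the 22215 tested probe sets for all 10 of the 11963 measured genes. Messenger RNA was measured on 6 oligonucleotide arrays, 1 per sample. WZR6 is a single resistant clone of NCI-H1975, isolated from cells that had been kept in rising concentrations of WZ4002, a kinase inhibitor directed at mutant EGFR. It was set against parental NCI-H1975, the WZ4002-sensitive lung cancer line from which it came. Each group held 3 samples (n = 3), which applies to all means, SDs and tests given here. Both lines were in exponential growth in medium with 5% serum at harvest, and the labels do not say whether the medium then held WZ4002. The labels do not say that the samples of a group came from separate cultures, so p-values measure only the spread between these samples, and with 1 clone, resistance and clonal variation cannot be told apart.

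NF-kB proteins are dimers of Rel family subunits that sit in the cytoplasm bound to inhibitors of the IkB family. Signals from TNF, interleukin-1 or Toll-like receptors activate the IKK complex, which phosphorylates an IkB, and its destruction frees the dimer to enter the nucleus. A second, slower route runs through the processing of the NFKB2 precursor and its partner RELB. Several genes of the system are themselves NF-kB targets, NFKBIA and TNFAIP3 among them, which makes the circuit limit itself. In lung cancer cells the pathway is known for driving inflammatory and survival genes.

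Transcripts of this group were higher in WZR6 for 8 of 10 genes and lower for 0. NFKBIE stood furthest apart, at 2.14 times its parental level, and REL, NFKB1, TNFAIP3, RELB, IKBKB, NFKB2 and RELA were 1.21-fold to 1.61-fold higher. NFKBIA and NFKBIB, which encode IkB alpha and IkB beta, were not called. The call is an adjusted p under 0.05 in limma's moderated test over all genes, with each gene represented by its brightest probe set. Across the array 48% of genes were called, 24.5% as higher and 23.5% as lower, so a call alone is common in this comparison. Calls were more common in a separate fit of bright genes alone. It took the 6916 genes above the median level and adjusted p-values over these only. In that fit 74.3% were called and 38.8% were higher, as were 6 of the 8 members among them. These are not the shares of bright genes called in the fit of all genes. The median difference of the 10 genes was 0.41 on the log2 scale (WZR6 minus parental), against 0.02 for all genes. Counted by probe set, 10 of 18 were called higher and 0 lower, against 41.1% of all probe sets called, 21.6% as higher and 19.5% as lower. The 3 WZR6 arrays all lay above the 3 parental arrays for 12 of the 18 probe sets, against 27.5% of all probe sets, where 51.1% did not overlap in either direction, and 17 of 18 differences were above 0. By gene, 8 of 10 did not overlap, all with WZR6 higher, against 29.2% of all genes with WZR6 higher and 56.3% in either direction.

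Promoter sequence was examined because many genes of the circuit are known NF-kB targets and most of them were raised together here. The RefSeq promoter table for GRCh38.p14 held 12 windows for 7 of the genes, each reaching from 250 bases before to 50 bases after an annotated start; RELB, NFKBIE and IKBKB were not analysed in this respect. The 10-letter kappaB consensus was searched on both strands with overlapping matches counted. At least 1 match lay in a window of 6 of these 7 genes, against 7.09% of the 27305 genes in the table and 9.03% of those measured on the array, and in 7 of 12 windows, against 5.91% of all windows. A list of 40 known NF-kB targets, whose measured genes are described below, held 33 genes with a window, measured or not. Of these 33, 57.6% had a match. The match-bearing windows of the raised genes NFKB1, NFKB2, REL and TNFAIP3 and of the uncalled NFKBIA are shown, and that of NFKBIB is left out; each is given from 250 bases before the start up to the start, 5′ to 3′ on the strand of the gene, with the matching letters in capitals.
NFKB1, chr4:102501109-102501358, plus strand: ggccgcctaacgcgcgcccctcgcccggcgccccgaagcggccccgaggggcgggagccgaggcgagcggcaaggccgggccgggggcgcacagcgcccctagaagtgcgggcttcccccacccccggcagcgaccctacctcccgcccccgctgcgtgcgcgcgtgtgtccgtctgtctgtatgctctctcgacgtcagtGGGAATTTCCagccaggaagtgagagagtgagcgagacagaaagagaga
NFKB2, start 2, chr10:102394328-102394577, plus strand: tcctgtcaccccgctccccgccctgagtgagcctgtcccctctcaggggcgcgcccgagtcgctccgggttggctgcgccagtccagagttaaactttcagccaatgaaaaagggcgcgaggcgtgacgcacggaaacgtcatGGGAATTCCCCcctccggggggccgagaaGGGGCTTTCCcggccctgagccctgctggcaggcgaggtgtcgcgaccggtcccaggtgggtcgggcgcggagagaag
NFKB2, start 3, chr10:102395455-102395704, plus strand: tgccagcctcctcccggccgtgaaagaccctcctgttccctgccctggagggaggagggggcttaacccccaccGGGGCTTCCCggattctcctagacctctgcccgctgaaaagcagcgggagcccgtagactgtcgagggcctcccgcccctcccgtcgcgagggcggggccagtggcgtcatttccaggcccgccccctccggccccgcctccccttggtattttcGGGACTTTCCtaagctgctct
REL, chr2:60881324-60881573, plus strand: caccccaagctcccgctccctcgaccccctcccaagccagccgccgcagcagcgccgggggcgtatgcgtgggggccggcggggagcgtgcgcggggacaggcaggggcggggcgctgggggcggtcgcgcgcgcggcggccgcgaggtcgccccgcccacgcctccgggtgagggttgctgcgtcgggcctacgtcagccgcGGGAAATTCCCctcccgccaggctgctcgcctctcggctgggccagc
TNFAIP3, chr6:137867009-137867258, plus strand: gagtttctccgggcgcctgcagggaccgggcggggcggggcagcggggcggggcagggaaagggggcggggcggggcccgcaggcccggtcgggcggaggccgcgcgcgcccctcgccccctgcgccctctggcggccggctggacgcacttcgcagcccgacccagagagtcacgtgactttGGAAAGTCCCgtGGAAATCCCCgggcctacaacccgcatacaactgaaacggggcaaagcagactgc
NFKBIA, chr14:35404750-35404999, minus strand: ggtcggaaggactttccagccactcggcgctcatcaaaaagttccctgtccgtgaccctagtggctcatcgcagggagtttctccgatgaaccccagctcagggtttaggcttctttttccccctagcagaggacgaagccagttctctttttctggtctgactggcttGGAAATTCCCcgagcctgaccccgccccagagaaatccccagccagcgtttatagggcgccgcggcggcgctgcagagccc
NFKB1 and NFKBIA carried the same letters on opposite strands, GGGAATTTCC and GGAAATTCCC, beginning 49 and 81 bases before their starts. REL and NFKBIB held these letters too, beginning 46 and 28 bases before their starts. TNFAIP3 had a pair of matches that began 67 and 55 bases before its start. NFKB2 had matches at 2 of its 3 annotated starts. RELA had none in either of its windows although its transcript was called higher, and NFKBIA and NFKBIB had matches although theirs were not called. A match describes the letters only, and binding was not measured.

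**Figure D1:**
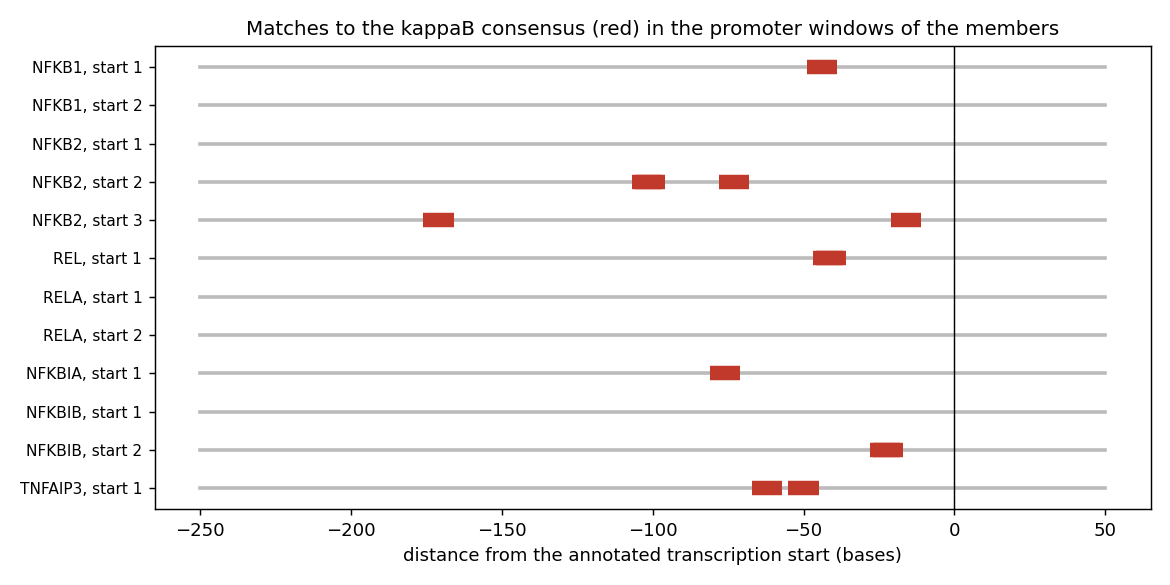
Each grey line is a promoter window from 250 bases before to 50 bases after an annotated start (0 on the horizontal axis, in bases), and each red block is a match to the 10-letter kappaB consensus on either strand. Matches lie in 7 of 12 windows, all of them before the start, and both RELA windows have none.

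Among the subunits, NFKB1, which encodes the p105 precursor of p50, gave the tightest separation. Its probe set read 10.02, 9.95 and 9.98 log2 units in the WZR6 arrays, against 9.43, 9.45 and 9.43 in the parental arrays. The groups were far apart beside a spread of at most 0.04 (SD) within each. NFKB1 was 1.46-fold higher in WZR6 (95% interval 1.36 to 1.58, adjusted p = 0.000107 in limma over all probe sets).

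NFKB2 encodes p100, which is both the precursor of p52 and an inhibitor of RELB dimers. Its brightest probe set, 207535_s_at, read 7.46, 7.53 and 7.61 in WZR6, against 7.17, 7.14 and 7.25 in parental cells. A second probe set, 209636_at, read 6.74, 6.52 and 6.41 in WZR6, against 6.20, 6.15 and 6.14 in parental cells. Both were called higher without overlap, by 0.35 ± 0.06 (SE) and 0.39 ± 0.09 on the log2 scale (adjusted p = 0.00279 and 0.00921 in limma). The third, 211524_at, was dim in both groups, with means of 4.44 in WZR6 and 4.58 in parental cells, below the lower quartile of all values at 5.27. It differed by -0.15 ± 0.11 (adjusted p = 0.369 in limma) with overlapping arrays.

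RELB, the partner of p52 in the slower route, read 7.75, 7.77 and 7.90 in WZR6, against 7.32, 7.44 and 7.30 in parental cells. No parental array reached the lowest WZR6 array. The difference was 0.45 ± 0.07 (SE), or 1.37-fold (1.23 to 1.52, adjusted p = 0.00132 in limma).

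REL encodes c-Rel, a subunit best known from lymphocytes. Probe set 206036_s_at read 7.12, 7.06 and 7.16 in WZR6, against 6.32, 6.26 and 6.69 in parental cells. The groups did not overlap, but parental replicate 3 lay well above the other parental arrays. REL was 1.61-fold higher by this probe set (1.34 to 1.94, adjusted p = 0.00245 in limma). The other REL probe set, 206035_at, was near background in every array, with means of 4.11 in WZR6 and 4.07 in parental cells, and it differed by 0.04 ± 0.12 (adjusted p = 0.812 in limma). The increase of REL therefore rests on 1 of its 2 probe sets, and with probe set 206035_at alone REL was not called.

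RELA encodes p65, the main activating subunit. Probe set 201783_s_at read 9.67, 9.79 and 9.80 in WZR6, against 9.51, 9.39 and 9.54 in parental cells. This was the smallest called difference of the group, 0.27 ± 0.06 (SE), or 1.21-fold (1.09 to 1.34, adjusted p = 0.0123 in limma). The second RELA probe set, 209878_s_at, read 8.06, 7.91 and 7.79 in WZR6, against 7.74, 7.77 and 7.52 in parental cells. Its arrays also did not overlap and its difference was close in size, 0.24 ± 0.09, but it missed the threshold (adjusted p = 0.0820 in limma; 0.0269 to 0.224 over the alternatives).

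**Figure D2:**
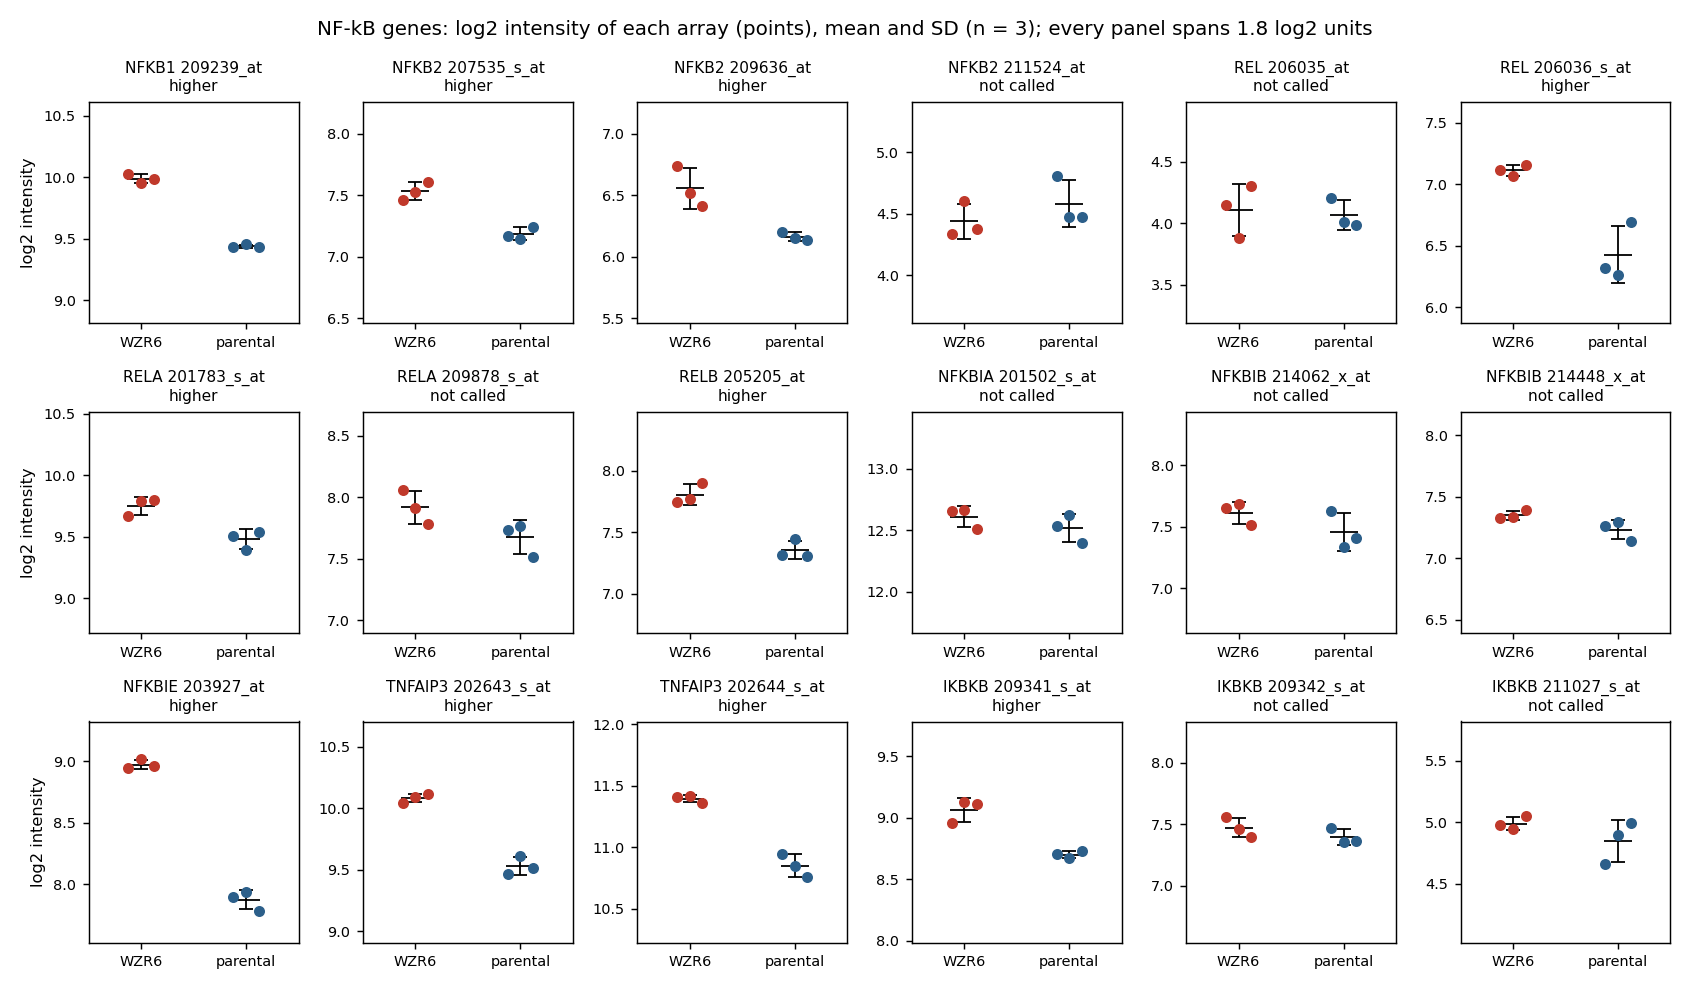
Log2 intensity of all 18 probe sets, with 3 WZR6 arrays left in red and 3 parental arrays right in blue; bars give the mean and SD, and every panel spans 1.8 log2 units on its own level. WZR6 lies above parental without overlap in 12 panels, from NFKB1 at 9.95 or more against 9.45 or less to NFKBIE at 8.94 or more against 7.94 or less.

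Of the 3 inhibitor genes only NFKBIE was called. NFKBIE, which encodes IkB epsilon, read 8.94, 9.02 and 8.96 in WZR6, against 7.89, 7.94 and 7.79 in parental cells. All WZR6 arrays lay far above all parental arrays beside the spread within either group. It was the only one of the 10 genes called with a difference of 2-fold or more, 1.10 ± 0.06 (SE), or 2.14-fold (1.95 to 2.36, adjusted p = 1.47e-05 in limma).

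NFKBIA encodes IkB alpha, the inhibitor that is destroyed and resynthesised most rapidly after stimulation. Its probe set read 12.66, 12.66 and 12.51 in WZR6, against 12.53, 12.62 and 12.40 in parental cells. The arrays overlapped, and the difference of 0.09 had a 95% interval of -0.09 to 0.27 (adjusted p = 0.382 in limma), and the upper end of that interval is a 1.21-fold increase. NFKBIB, which encodes IkB beta, had the probe sets 214062_x_at and 214448_x_at, a type that can detect several transcripts. They differed by 0.16 (-0.05 to 0.37) and 0.12 (-0.02 to 0.25), with adjusted p = 0.210 and 0.152 in limma. The first overlapped between groups, at 7.65, 7.68 and 7.51 in WZR6, against 7.63, 7.33 and 7.41 in parental cells. The second did not, at 7.33, 7.33 and 7.39 in WZR6, against 7.26, 7.29 and 7.14 in parental cells.

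The inhibitors were also set against each other within arrays, as a description with no test, since the pairs were chosen after the values were seen. The log2 ratio of NFKBIE to NFKBIA was higher in WZR6 than in parental cells by 1.01, and that of NFKBIE to NFKBIB by 0.94, each without overlap between the groups. The ratio of NFKBIB to NFKBIA differed by 0.06 with overlapping arrays.

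TNFAIP3 encodes A20, a ubiquitin-editing enzyme that shuts off signalling upstream of IKK. Probe set 202644_s_at read 11.41, 11.42 and 11.36 in WZR6, against 10.95, 10.85 and 10.76 in parental cells. Probe set 202643_s_at read 10.04, 10.09 and 10.11 in WZR6, against 9.47, 9.61 and 9.51 in parental cells. The groups were apart in both, and each probe set gave a difference of 0.55 ± 0.06 (SE), with adjusted p = 0.000405 and 0.000241 in limma.

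IKBKB encodes IKK beta, the catalytic subunit that phosphorylates the IkB proteins. Its brightest probe set, 209341_s_at, read 8.96, 9.13 and 9.11 in WZR6, against 8.71, 8.67 and 8.73 in parental cells, a difference of 0.36 ± 0.06 (SE, adjusted p = 0.00272 in limma). The other probe sets did not bear the same call. Probe set 209342_s_at differed by 0.08 ± 0.06 (adjusted p = 0.388 in limma) and the dim 211027_s_at by 0.14 ± 0.09 (adjusted p = 0.276 in limma), each with overlapping arrays. The increase of IKBKB therefore rests on 1 of its 3 probe sets.

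**Figure D3:**
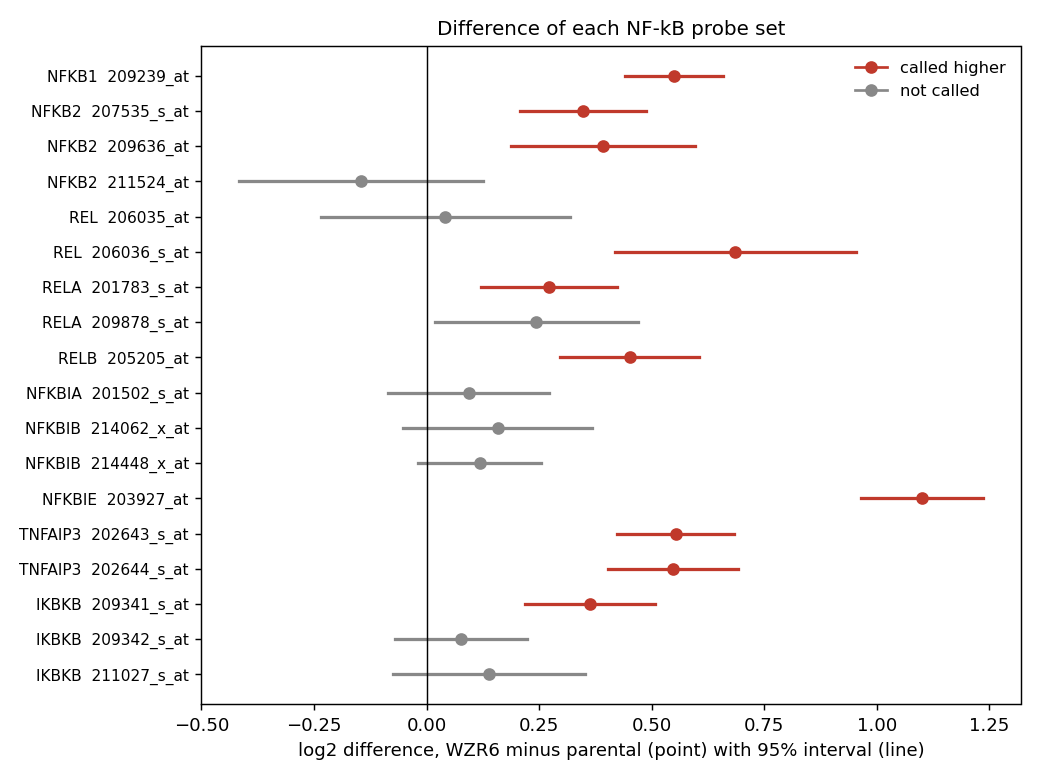
Log2 difference, WZR6 minus parental, of each probe set (point) with its 95% interval (line); red marks the 10 called higher and grey the 8 not called. NFKBIE lies furthest right at 1.10, and 211524_at of NFKB2 is the single point left of 0, at -0.15.

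IKBKB works in a complex with CHUK, which encodes IKK alpha, and IKBKG, which encodes the scaffold NEMO, and both of these were lower. CHUK read 9.44, 9.25 and 9.52 in WZR6, against 9.94, 9.91 and 10.11 in parental cells, or 1.49-fold lower (adjusted p = 0.00134 in limma over genes). IKBKG read 8.77, 8.84 and 8.92 in WZR6, against 9.30, 9.36 and 9.25 in parental cells, or 1.38-fold lower (adjusted p = 0.000461 in limma over genes). A further IKBKG probe set differed by -0.19 and was called lower as well. IKBKG has a near-identical pseudogene copy, so its probe sets can cross-hybridise and its level is uncertain. Within arrays, the log2 ratio of IKBKB to CHUK was higher in WZR6 by 0.94 and that of IKBKB to IKBKG by 0.82, without overlap between the groups, again as a description of pairs chosen after their values were seen. Since 2 IKBKB probe sets were not called, these ratios hold for probe set 209341_s_at.

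Among 19 measured genes of the IKK complex and its upstream kinases and adaptors, CHUK and IKBKG included, 6 were higher, 5 lower and 8 not called, with a median difference of -0.01. For this list and those below, the shares over all genes were 24.5% higher and 23.5% lower. MAP3K8, the kinase that p105 holds inactive, rose 3.09-fold, with 10.05, 10.01 and 10.27 in WZR6, against 8.32, 8.40 and 8.72 in parental cells (adjusted p = 5.33e-05 in limma). TRAF1, a signalling adaptor and known NF-kB target, rose 2.68-fold, with 8.24, 8.57 and 8.56 in WZR6, against 7.18, 6.89 and 7.04 in parental cells. BIRC2, the ubiquitin ligase cIAP1, rose 1.75-fold, while RIPK2, the kinase of NOD signalling, fell 1.68-fold. MAP3K14, the kinase that starts NFKB2 processing, differed by -0.17 ± 0.13 (SE, adjusted p = 0.334 in limma) and was chosen for mention after its value was seen.

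Receptors that signal to NF-kB were higher for 7 of 16 genes, lower for 3 and not called for 6 (median 0.26). TLR2 and TLR3, sensors of bacterial lipoproteins and double-stranded RNA, rose 2.41-fold and 2.00-fold, and TNFRSF10B, a TRAIL receptor, rose 1.70-fold. TNFRSF12A, the receptor for TWEAK, fell 1.78-fold. Of 9 measured ligands, 2 were higher and 3 lower, and the other 4 were not called (median 0.03). TNF itself read 6.94, 7.45 and 6.91 in WZR6, against 6.10, 6.19 and 6.14 in parental cells, or 1.94-fold higher (adjusted p = 0.00136 in limma). LTB, a lymphotoxin subunit, rose 1.83-fold, while IL1B fell 1.72-fold by its brighter probe set (the other differed by -0.52 and was not called) and TNFSF10, the ligand TRAIL, fell 2.14-fold. TNF, IL1B and TLR3 had group means below the median of all values at 7.38, and none of the 3 was called with a floor at that median.

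Among 17 measured further inhibitors and nuclear cofactors, 7 were higher, 6 were lower and 4 missed the threshold (median 0.07). TNIP3, an A20-binding protein, rose 1.64-fold and RNF11, a partner of A20, rose 1.48-fold. PDLIM2, a ligase that acts on nuclear p65, fell 1.61-fold. BTRC, the ligase subunit that recognises phosphorylated IkB, fell 1.55-fold by its brightest probe set, while its other 2 probe sets differed by -0.05 and -0.09 and were not called. The calls of TNIP3 and BTRC also ended with the floor. BCL3, a nuclear IkB protein, had no probe set annotated to it alone and is not given.

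Genes that NF-kB is known to induce showed calls in both directions. Of 35 measured targets outside the 10 genes, 13 were higher, 15 lower and 7 not called, with a median difference of -0.05. Over all genes 24.5% were higher and 23.5% lower. Differences of 2-fold or more were called for 7 higher and 10 lower targets. The share of all genes called at that size was not counted, here or for the 10 genes. IL32 read 10.79, 10.77 and 10.67 in WZR6, against 8.09, 8.06 and 8.03 in parental cells, a 6.43-fold increase, and VCAM1, an adhesion molecule of the vessel wall, rose 5.84-fold, with means of 7.27 in WZR6 and 4.73 in parental cells, the second below the lower quartile, and was not called with the floor. PTGS2, which encodes COX-2, and BCL2A1, a prosurvival BCL2 relative, fell by 5.34 and 4.19 on the log2 scale. Their WZR6 means of 4.51 and 4.60 also lay below that quartile and are not known to be above background, so the sizes depend on how dim values are treated. With the floor at the median they fell by 2.48 and 1.42, and both were still called. Within the 10 genes, 6 of the 7 known as NF-kB targets themselves (NFKB1, NFKB2, REL, RELB, NFKBIA, NFKBIE and TNFAIP3) were called higher. So were 2 of the other 3 (RELA, NFKBIB and IKBKB), against 24.5% of all genes.

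**Figure D4:**
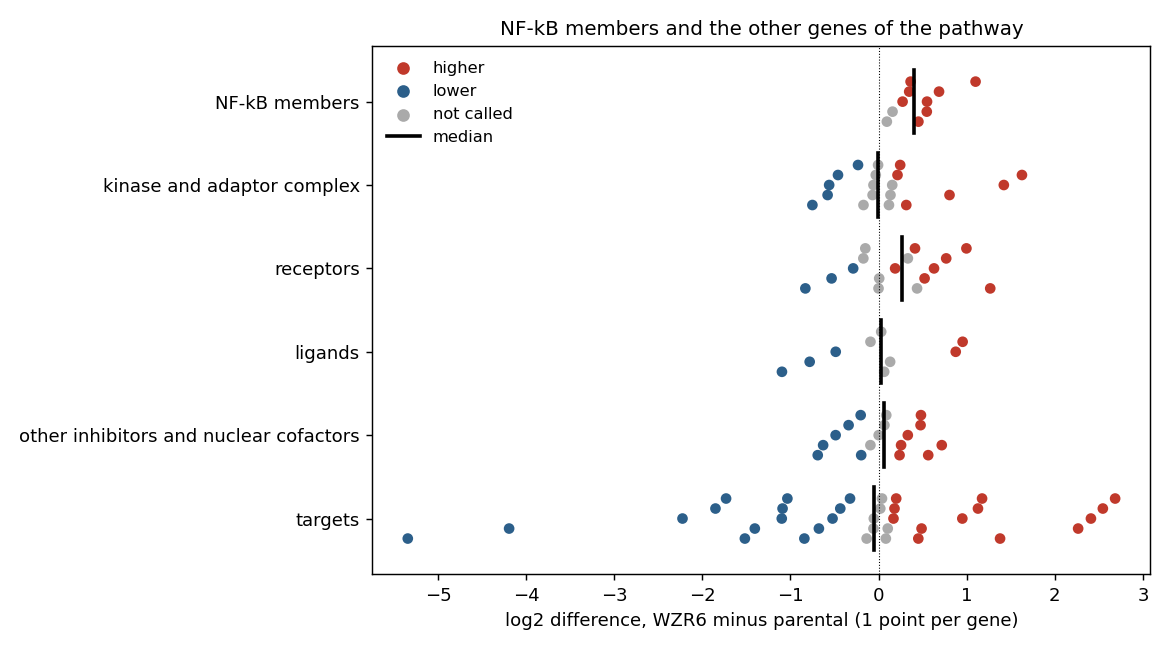
Log2 difference, WZR6 minus parental, of each measured gene, with 1 row per list and a black bar at the median; red is called higher, blue called lower, grey not called. The NF-kB members lie at 0.09 or above with a median of 0.41, while the 35 targets spread from -5.34 to 2.68 around a median of -0.05.

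The genes next to each of the 10 on its chromosome were compared with it, since a shift shared with neighbours would not be particular to the gene. Neighbours were the 20 nearest measured genes on each side in the RefSeq gene order of GRCh38.p14. The medians of the neighbours ran from -0.10 beside NFKB2 to 0.17 beside NFKBIE. NFKBIE lies on chromosome 6 among neighbours of which 19 of 40 were higher and 1 lower, but 0 of the 40 reached its own difference. NFKB1 likewise had 0 of 40 neighbours at or above its level of change, around a median of 0.01. Among the 80 genes of a window of 40 on each side, 3 reached the difference of NFKB1 and 1 that of NFKBIE. NFKB2 rose beside genes of which 17 of 40 were lower and 1 was higher. TNFAIP3 and IKBKB had raised surroundings, with 19 and 18 of 40 neighbours higher, and 7 and 12 neighbours with differences at or above their own. For RELA 8 of 40 neighbours, and for NFKBIA 22 of 40, reached or passed its difference. The share of all genes that reach each of these differences was not counted. The neighbour counts therefore do not show whether a change is particular to its gene. DNA copy number was not measured, and its part in these differences was not tested.

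**Figure D5:**
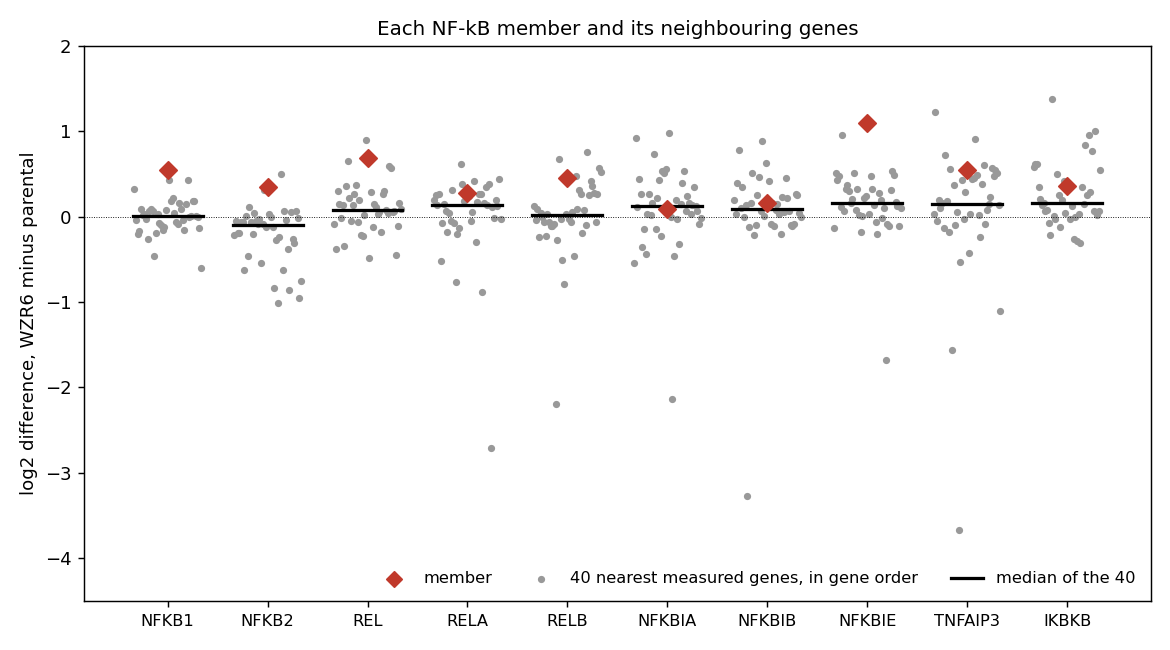
Log2 difference, WZR6 minus parental, of each gene (red diamond) and of its 40 nearest measured genes (grey points, left to right in gene order), with their median as a black bar. NFKB1 and NFKBIE lie above all 40 of their neighbours, and NFKBIA lies close to the median of its own.

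The profile most like that of NFKBIE over the 6 samples, by root mean square distance between log2 values centred on each gene's mean, was that of CHEK2 at 0.028, followed by P3H1 at 0.036 and CARD10 at 0.039. CHEK2 rose 2.22-fold, P3H1 2.13-fold and CARD10 2.05-fold in WZR6, and 2 dimmer CARD10 probe sets were not called, at -0.02 and -0.08.

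Across the series, the arrays had medians between 163 and 170 on the linear scale and 0 pairs of arrays were identical. Epithelial markers were lower in WZR6 for 7 of 8 genes, with EPCAM at 6.17 in WZR6 and 12.43 in parental cells and sums of linear intensity of 23394 to 24094 in WZR6 and 42480 to 42724 in parental cells. Leukocyte markers, which were checked because REL and RELB are prominent in blood cells, were lower for 3 of 10 and higher for 0, and their summed linear intensity was 495 to 548 in WZR6 and 861 to 920 in parental cells. The pan-leukocyte marker PTPRC lay below the lower quartile in both groups, at 4.18 in WZR6 and 4.20 in parental cells. Fibroblast and endothelial markers were higher for 2 of 9 (PDGFRB and CDH5) and lower for 2, with sums of 1436 to 1469 in WZR6 and 2332 to 2520 in parental cells. The lower 2, COL1A2 and COL1A1, were the brightest of that list in parental cells, at 10.29 and 9.60, and weigh most in its parental sum. Lung markers were lower for 2 of 4, with 478 to 498 in WZR6 and 997 to 1070 in parental cells. The samples were cultures of NCI-H1975 and of a clone from it, not tissue, so these sums describe transcript levels. The part of these shifts in the NF-kB differences was not tested. In bulk RNA, fewer cells that express a marker and less RNA per cell cannot be told apart.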

How the data were processed

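Expression was measured in 3 WZR6 and 3 parental samples. The deposited table holds 1 linear intensity per probe set and array, made by the authors with RMA per the submitters' processing notes; the sources used here name no version or settings, and each array is a sample of its own. The table carries no detection calls, so no value is known to be above background. Intensities were converted to log2 without a pseudocount and not normalized again. Control probe sets (62 of 22277) were left out. Names came from the platform annotation for the 19064 probe sets with 1 gene, of which 19052 matched the RefSeq table of GRCh38.p14 by Entrez identifier. The brightest probe set on average, across all 6 arrays, stood for each gene.

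Differences between WZR6 and parental cells were tested two-sided without covariates by limma 3.58.1 (R 4.3.3), in one fit of all probe sets and another of all genes. P-values were adjusted by Benjamini-Hochberg and called at 0.05. Per-array values, intervals and adjusted p-values of the 10 genes come from the probe set fit, counts and other genes from the gene fit. The fits were tested on simulated data, where smaller planted changes were missed more often than larger ones. A gene that was not called may therefore still differ. Precision is limited by how few arrays there are.

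The members, lists and tests were chosen with earlier results of these data known. Genes outside the 10 were named by rule: CHUK, IKBKG and BCL3 always, up to 4 called genes of each list by size of difference, and the 3 nearest profiles to the member with the largest difference. Promoter windows came from RefSeq. Same-numbered samples deviated from their group means with correlations of -0.01, 0.12 and 0.23 over probe sets. With 3 samples per group this does not settle whether the numbers pair the samples, and the main fits treated them as unpaired. Alternatives are given at the end.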

Additional observations from a re-analysis of the deposited data

How the results depend on the processing

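Counts were recomputed under cyclic loess, median centring, quantile normalization, a filter at the median level, a floor at the median, trended robust variance, a replicate block, without _x_at and _s_at probe sets, with probe sets averaged per gene, and without each array in turn. In these fits 0 of the 10 genes was called lower. Of the 8 called genes, 7 stayed called in every alternative that measured them, with adjusted p up to 0.0458 for NFKB2 in limma. The exception was REL, which had no difference left under the floor (0, adjusted p = 1) and differed by 0.04 without _x_at and _s_at probe sets (adjusted p = 0.813). In the probe set fit, the floor also ended the calls of both NFKB2 probe sets, the brighter of which differed by 0.16 (adjusted p = 0.0563 in limma). Averaging probe sets per gene lowered the differences to 0.36 for REL, 0.20 for NFKB2 and 0.19 for IKBKB, each still called. NFKBIB was called without parental replicate 1, at 0.24 (adjusted p = 0.0341 in limma), and NFKBIA in no alternative (adjusted p 0.147 to 0.726). Without _x_at and _s_at probe sets 5 of the 10 genes and 6 of the 18 probe sets remain to be measured. Of these, 4 genes and 4 probe sets were called higher. This setting tested 8369 genes and 11813 probe sets in all. Among them 3487 genes and 4245 probe sets were called, and 21.4% and 18.9% were higher. Leaving out single arrays gave 8 to 9 genes and 10 to 11 probe sets higher, 0 lower, among 5043 to 5441 genes and 7759 to 8415 probe sets called. With the replicate block 8 genes and 11 probe sets were called higher, the added one being the second RELA probe set (adjusted p = 0.0269 in limma). The labels link the blocked samples by a number only. Other lists moved too. Without _x_at and _s_at probe sets, targets had 6 higher and 8 lower and the kinase and adaptor list 3 higher, among fewer measured genes. TNF and LTB, the ligands called higher, had only such probe sets, so by this construction ligands had 0 higher. RELA, NFKBIA, NFKBIB, TNFAIP3 and IKBKB likewise had no probe set left and were not measured. With the floor, targets had 8 higher and ligands 1 higher and 1 lower. With the filter at the median ligands had 1 higher and 0 lower, since it left out TNF, IL1A, IL1B and TNFSF10. With 10 neighbours on each side the median was -0.0460 beside RELB (0.02 with 20), 0.181 beside NFKBIA and 0.0355 beside IKBKB. With 40 it was 0.0297 beside NFKB1, 0.0493 beside REL, 0.0219 beside RELA and 0.216 beside NFKBIE. The cause of these shifts was not tested.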
